A study of Mus musculus with 8 samples.

Results

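Wwp2 and 6 paralogues of the NEDD4 family of ubiquitin ligases, Wwp1, Itch, Nedd4, Nedd4l, Smurf1 and Smurf2, were followed in mouse rib chondrocytes with and without the Mir140 locus. Wwp2 was taken because Mir140 lies inside it, and the others because they belong to the same protein family. The deposited tables held 52325 gene identifiers. All 7 members were among the 17177 genes with enough signal to be tested, that is at least 0.5 TPM (transcript abundance as a share of a library's RNA, corrected for gene length) in 4 or more of the 8 libraries.

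The 8 poly(A) RNA-seq libraries came from costal chondrocytes that collagenase had freed from the ribs of 7-day-old mice. There were 4 wild-type libraries and 4 Mir140-null libraries, both on a C57BL/6J background. The null line had been made by CRISPR/Cas9 removal of the Mir140 locus with a pair of guides in embryos of mixed C57BL/6 and CBA origin, then backcrossed, and heterozygotes were intercrossed to found both the wild-type and the null lines. The deletion is constitutive, so every cell of a null mouse lacks the locus from conception. The labels do not say whether each library was 1 animal, so the p-values measure the spread between these libraries, which may be technical.

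NEDD4-family ligases are HECT-type E3 enzymes: they take ubiquitin from an E2 enzyme onto a cysteine of their own HECT domain and pass it to a substrate, which their WW domains often recognise by a PPxY motif, while a C2 domain can bring them to membranes. Smurf1 and Smurf2 are known for marking SMADs and TGF-beta or BMP receptors for degradation, Nedd4 and Nedd4l for ubiquitinating channels and receptors at the membrane, Itch for targeting Jun proteins in T cells, and Wwp2 for its high level in cartilage, where SOX9 drives it together with the microRNA in its intron. That microRNA, miR-140, is abundant in chondrocytes and restrains target mRNAs through matches to its seed, usually in the 3′UTR.

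Some facts of the libraries touch the values that follow. The libraries labelled Mir140-null replicates 1 and 2 listed 15800 and 16056 genes at 0.5 TPM or more, against 16991 to 17950 in the other 6. The summed level of 10 chondrocyte markers, most of it Col2a1, was 62080 to 77370 TPM (wild-type) and 46690 to 63740 TPM (null). Of these markers Acan was called up and Hapln1, Col9a1 and Col11a1 down, and Matn1 was the lowest, at 10.02 to 48.8 TPM over all libraries. The summed level of 6 fibroblast and perichondrium markers was 3076 to 5886 TPM across wild-type libraries, 5250 and 3822 TPM in the libraries labelled Mir140-null replicates 3 and 4, and 584.8 and 738.8 TPM in replicates 1 and 2. Summed markers of osteoblasts, skeletal muscle and blood were also lowest in those 2 libraries. They were at 3.83 and 2.94 TPM for osteoblasts (9.18 to 16.8 TPM in the other 6), 5.30 and 5.38 TPM for skeletal muscle (12.6 to 30.1 TPM) and 317.6 and 178.5 TPM for blood (429.5 to 1153 TPM). Endothelium markers followed this in part, with sums of 2.82 and 4.56 TPM against 4.22 TPM in wild-type replicate 1. Pecam1, Kdr and Tek were each lowest in those 2 libraries. Cdh5 was not, at 0.629 and 2.13 TPM against 1.18 TPM in wild-type replicate 1. Summed hypertrophic chondrocyte markers did not follow this, at 89.25 and 69.2 TPM against 48.2 TPM in wild-type replicate 1. Of the 6 fibroblast markers none was at 0, and only Pdgfra passed the test between genotypes, upwards. Single markers did not all follow the sums. Pdgfra was at 34.5 and 36.5 TPM in Mir140-null replicates 1 and 2, 31.5 and 34.3 TPM in replicates 3 and 4, and 11.8 to 19.8 TPM in wild-type. S100a8, a blood marker, was at 0.618 and 0.853 TPM in Mir140-null replicates 1 and 2 against 0.274 to 1.22 TPM in wild-type. Col1a1, the defining collagen of fibrous tissue, was at 47.9 and 50.1 TPM in Mir140-null replicates 1 and 2 against 792.6 to 1544 TPM in the other 6 libraries. The mitochondrial genome's own transcripts made up 4.06% to 6.99% of a wild-type library's TPM and 8.41% to 10.1% of a null one's.

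The host gene comes first. Wwp2 (ENSMUSG00000031930, GRCm38 chr8:107436365-107558595, plus strand) has 11 annotated transcripts, of which 4 are protein-coding. The Mir140 hairpin (chr8:107551244-107551313, 70 bases, same strand) sits in intron 16 of the full-length Wwp2-201, which has 24 exons, 1108 bases after the exon before it and 963 bases before the next. It also lies in intron 15 of Wwp2-204 and in intron 7 of Wwp2-205, a short protein-coding transcript that begins 6232 bases upstream of the hairpin. A retained-intron transcript, Wwp2-206, holds the hairpin within its only exon. The tables give 1 value per gene, so RNA of these transcripts cannot be told apart.

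The mature miR-140-3p from this hairpin (chr8:107551288-107551308) occurs as 2 forms that differ by 1 base at the 5′ end and so in their seed, bases 2 to 8, shown here in capitals because the seed decides which 3′UTR letters can pair. Both are copied from RefSeq (GRCm38.p6), the shorter by removing the first base of the listed sequence. Sites of miR-140-5p were not analysed here.
miR-140-3p.2, the listed form: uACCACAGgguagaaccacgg
miR-140-3p.1, the form that starts 1 base later: aCCACAGGguagaaccacgg

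The Mir140 row itself read 0 TPM in each wild-type library and in 3 null ones, replicates 1, 3 and 4, but 8.86 TPM in a single library, the one labelled Mir140-null replicate 2. The annotated gene is the short hairpin alone, and poly(A) libraries of long RNA do not capture mature microRNAs. The level was above 0 in a library labelled null and not in any labelled wild-type, which at face value goes against the label of 1 library. The row was also at 0 in wild-type, and its 70 bases lie within the exon of Wwp2-206. It therefore cannot settle the label of any library, and a wrong label was not tested. For that reason each member's difference is given below with and without that library.

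Wwp2 was the most abundant member in both genotypes. Its level was 352.5, 459.2, 331.9 and 377.5 TPM in wild-type replicates 1 to 4, and 260.7, 349.1, 393.6 and 358.1 TPM in Mir140-null replicates 1 to 4. The lowest library was a null one and the highest a wild-type one, and the other 6 interleaved. The means were 380.3 ± 55.8 TPM and 340.4 ± 56.5 TPM (SD, n = 4 each). On the log2(TPM + 1) scale the difference, null over wild-type, was -0.16 with an SE of 0.16 and a 95% interval of -0.52 to 0.19, and it missed the threshold (limma, Benjamini-Hochberg adjusted p = 0.487 over all genes tested). Without the library labelled Mir140-null replicate 2 it was -0.18 (adjusted p = 0.537). The difference shrank to -0.07 without wild-type replicate 2, to -0.04 without null replicate 1 and to -0.01 without null replicates 1 and 2. The interval leaves room for a fall or a rise of Wwp2 mRNA in the null, and 0 lies inside it.

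Besides Mir140, 2 annotated genes lie inside Wwp2 on the opposite strand. Rps26-ps1, a pseudogene of a ribosomal protein gene, was listed at 443.3 to 596.4 TPM, and reads from near-identical copies could have been assigned to it, so its value is uncertain. Gm45900, another pseudogene, stayed at or under 0.589 TPM.

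Around Wwp2, 11 protein-coding genes lay whole within 500 kb, and 10 of them were tested. The share of all tested genes called between genotypes, in either direction, was 16.9%, with 10.5% called up and 6.4% called down in Mir140-null. Of the 10 neighbours 3 were called up and none down, and 7 had an unadjusted p under 0.05 upwards and 1 downwards. The share of all genes at an unadjusted p under 0.05 was not computed, here or for the lists below. Genotypes did not overlap for 8 of the 10, 7 higher and 1 lower in Mir140-null, beside 25.9% of all tested genes. Their median log2 difference was 0.51, against -0.01 over all genes tested. Nob1 (chr8:107412486-107425051), an endonuclease of ribosome maturation and the nearest expressed neighbour upstream at 11.3 kb, rose from 12.8, 13.5, 11.8 and 13.9 TPM to 24.4, 22.8, 17.4 and 16.4 TPM (adjusted p = 0.0336). Psmd7 (chr8:107580381-107588464), a lid subunit of the proteasome and the nearest downstream at 21.8 kb, rose from 28.3, 24.9, 29.8 and 30.5 TPM to 59.8, 48.2, 40.7 and 42.9 TPM (adjusted p = 0.0156). Nip7 (chr8:107056877-107060931), another ribosome assembly factor, at 375.4 kb upstream, rose from 20.6, 27.5, 28.4 and 29.4 TPM to 51.7, 40.9, 40.2 and 40.3 TPM (adjusted p = 0.0192).

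In these 3 genes every null library lay above every wild-type library, with null replicates 1 and 2 the highest. Nob1 was not called with median-ratio scaling. With the library labelled Mir140-null replicate 2 left out, Nip7 and Psmd7 were still called. Without null replicates 1 and 2 limma called none of the 10, with 3 up and 1 down at an unadjusted p under 0.05. Their median was then 0.31. Over all genes calls fell as well, from 1797 up and 1100 down of 17177. They were 755 up and 428 down of 16863 without null replicate 2. Without null replicates 1 and 2 they were 386 up and 234 down of 16504. Wwp2 thus lay between called neighbours while its own libraries overlapped, as the plot of differences by distance shows. The next genes upstream of Nob1 were lower in Mir140-null and not called. Nqo1, at 33.2 kb, had a log2 difference of -0.40 without overlap (limma, adjusted p = 0.0626). Nfat5, at 56.85 kb, had -0.34 with overlap (limma, adjusted p = 0.335).

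**Figure D1:**
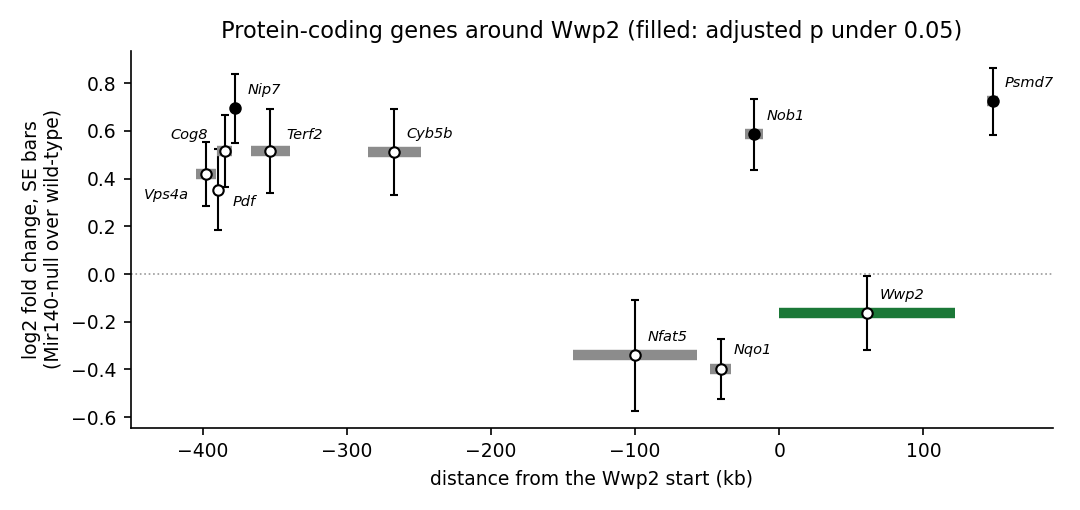
The log2 fold change, Mir140-null over wild-type, on the log2(TPM + 1) scale (vertical axis, bars are SE) of the 10 tested protein-coding neighbours of Wwp2 and of Wwp2 (green), against distance from the Wwp2 start in kb (horizontal axis). Each horizontal bar is the span of a gene. Nip7, Nob1 and Psmd7, filled, had an adjusted p under 0.05, while Wwp2 sat at -0.16.

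Levels of different genes can be compared here because TPM is per length. In every library the order began with Wwp2, then Nedd4, then Nedd4l, and ended with Wwp1. In wild-type the mean of Wwp2 was 2.58 times that of Nedd4, and Nedd4 4.33 times Nedd4l, and in Mir140-null these ratios of means were 3.04 and 2.05. The ranges of Wwp2 and Nedd4 did not overlap in either genotype, nor did those of Nedd4 and Nedd4l. Wwp2 stood at percentile 98.0 of the wild-type means of all tested genes and Nedd4 at percentile 95.7, so both were among the abundant transcripts of these cells. Nedd4l stood at percentile 84.0, and Smurf2, Smurf1, Itch and Wwp1 between percentiles 69.9 and 42.4.

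The places from 4 to 6 changed between libraries. In all 4 wild-type libraries Smurf2 took place 4, ahead of Smurf1 in replicates 2 to 4 and ahead of Itch in replicate 1. Itch took place 4 in Mir140-null replicates 1 and 2, and Smurf1 in replicates 3 and 4. Smurf2 and Smurf1 overlapped in range in both genotypes, Smurf1 and Itch in wild-type, and Itch and Smurf2 in Mir140-null. Nedd4l and Smurf2 also overlapped in wild-type, through the low Nedd4l of replicate 1. Within a library, however, Nedd4l was above Smurf2 and Smurf2 above Smurf1 in all 4 wild-type libraries, while Smurf2 was above Smurf1 in 2 of 4 null ones.

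As a share of the summed TPM of the 7 members, Wwp2 took 62.9% ± 2.56 in wild-type and 60.9% ± 2.53 in Mir140-null (SD, n = 4 each). Nedd4 took 24.6% ± 2.87 and 19.96% ± 1.83, and Nedd4l 5.58% ± 1.95 and 9.72% ± 1.15. The share of Nedd4l was at most 6.78% in wild-type and at least 8.80% in Mir140-null. These shares add to 100% within a library, so a higher share of one member lowers those of the others. Depth per library cannot be read from TPM, so no counting interval is given.

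**Figure D2:**
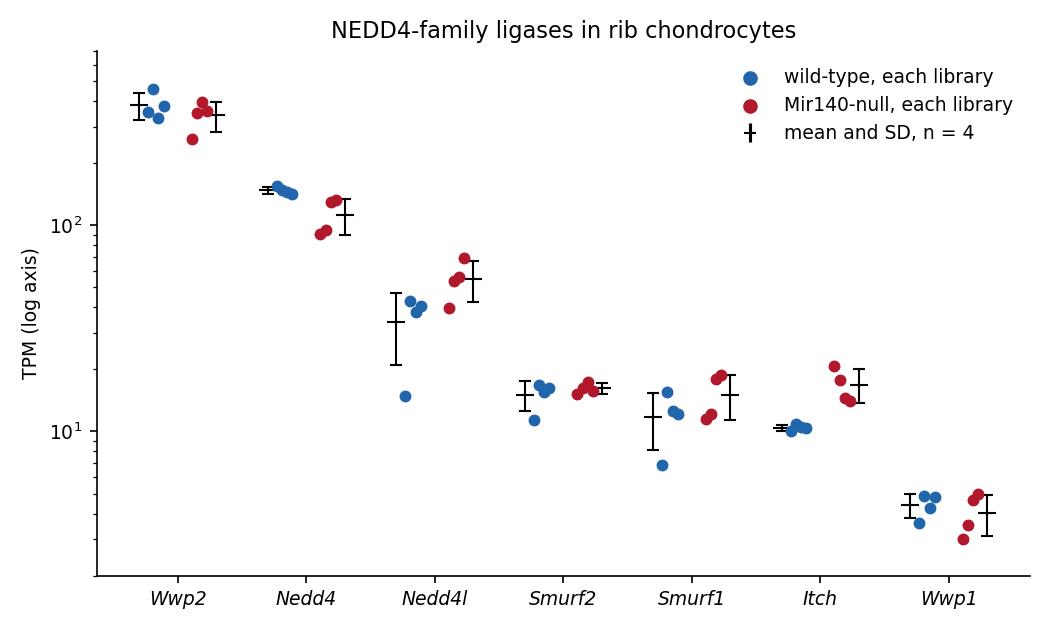
TPM (vertical log axis) of the 7 members in each of the 4 wild-type (blue) and 4 Mir140-null (red) libraries, points of a gene running from replicate 1 on the left to replicate 4 on the right, with the mean and SD in black (n = 4). Wwp2, Nedd4 and Nedd4l hold the first 3 places in both genotypes, and Itch, at 10.04 to 10.8 TPM in wild-type, is higher in all 4 null libraries.

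The comparison between genotypes asked whether loss of the Mir140 locus went with altered mRNA of its host gene or of the ligases related to it. Of the 7 members, 1 was called up, Itch, and none down, a share of 14.3% beside the 16.9% of all tested genes called by limma, and at an unadjusted p under 0.05 the numbers were 1 up and 1 down. Groups did not overlap for 2 members, Itch and Nedd4, where 25.9% of all tested genes did not, 15.7% being higher and 10.2% lower in Mir140-null. The median log2 difference over the members was 0.11. The members were thus called about as often as other genes.

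**Figure D3:**
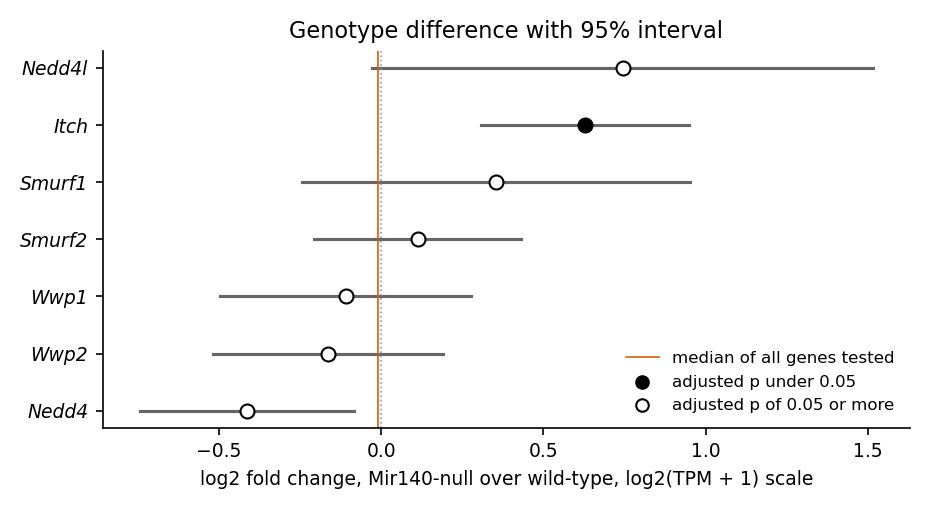
The log2 fold change, Mir140-null over wild-type, on the log2(TPM + 1) scale (horizontal axis) with its 95% interval for each member, ordered by size. Itch, filled, had an adjusted p under 0.05, the interval of Nedd4 lay below 0 but its adjusted p was 0.0820, and those of the other 5 members held 0.

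Itch (ENSMUSG00000027598, GRCm38 chr2:155133509-155226855, plus strand), the ligase whose loss causes itching and immune disease in mice, was at 10.04, 10.8, 10.5 and 10.4 TPM in wild-type. In Mir140-null it was at 20.9, 17.9, 14.6 and 14.1 TPM. The wild-type libraries were tightly grouped, and every null library lay above them, with null replicates 1 and 2 the highest. The mean rose from 10.4 ± 0.330 to 16.9 ± 3.15 TPM (SD, n = 4 each), a ratio of 1.62. The log2 difference was 0.63 with an SE of 0.14 and a 95% interval of 0.31 to 0.95 (limma, adjusted p = 0.0232).

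The call was lost without wild-type replicate 1 (log2 difference 0.61, adjusted p = 0.0544), wild-type replicate 3 (0.63, 0.0606), wild-type replicate 4 (0.62, 0.0617) or the library labelled Mir140-null replicate 2 (0.60, 0.0644), and kept without each of the other 4. The log2 difference stayed between 0.43 and 0.70 over 18 other settings, and its lowest value came without null replicates 1 and 2. Adjusted p ran from 0.00528 to 0.0813. The lowest p came with 1 factor taken from the residuals after genotype, which cannot move the difference and favours a lower p. Those same 2 libraries had the low summed markers of fibroblasts, osteoblasts, muscle and blood given above, and the part of this in the difference of Itch was not tested. In bulk libraries, fewer cells of a type and less RNA per cell cannot be told apart.

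Nedd4 (ENSMUSG00000032216, chr9:72662346-72749852, plus strand), the family's founding member, was at 154.1, 148.4, 144.2 and 142.1 TPM in wild-type. In Mir140-null it was at 90.1, 94.8, 130.0 and 132.3 TPM. All 4 null libraries lay below all wild-type ones, replicates 1 and 2 far below and replicates 3 and 4 close to them. The means were 147.2 ± 5.29 and 111.8 ± 22.4 TPM (SD, n = 4 each), a ratio of 0.760. The log2 difference was -0.41 with an SE of 0.14 and a 95% interval of -0.74 to -0.08, and it missed the threshold once adjusted (limma, adjusted p = 0.0820, unadjusted p = 0.0199).

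The difference of Nedd4 was negative in all 18 other settings, though changes of filter, a replicate block and 1 factor of unwanted variation cannot move it. It passed the threshold with median-ratio scaling (-0.49, adjusted p = 0.0361) and with quantile normalization (-0.57, adjusted p = 0.0464). With 1 factor it passed as well (-0.41, adjusted p = 0.0111). That factor was taken from the residuals after genotype, which favours a lower p by construction, so this pass adds no support. Leaving out the library labelled Mir140-null replicate 2, the difference was -0.34 (adjusted p = 0.183), and without null replicates 1 and 2 it was -0.16 (adjusted p = 0.288). Nedd4 was thus lowest in the same libraries in which Itch was highest and those summed markers were low, and their part in the difference was not tested. The 4 transcripts of unclear status annotated inside Nedd4 on its strand stayed at or under 9.23 TPM.

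Nedd4l (ENSMUSG00000024589, chr18:64887705-65217828, plus strand), the closest paralogue of Nedd4 and known for restraining epithelial sodium channels, was at 14.9, 42.8, 37.7 and 40.8 TPM in wild-type. In Mir140-null it was at 39.6, 53.6, 55.8 and 69.4 TPM. Null replicates 2 to 4 lay above every wild-type library, null replicate 1 fell among them, and wild-type replicate 1 was the lowest of all 8. The means were 34.0 ± 12.9 and 54.6 ± 12.2 TPM (SD, n = 4 each). The log2 difference of 0.74 had an SE of 0.34 and a 95% interval of -0.03 to 1.52 (limma, adjusted p = 0.160). Without the library labelled Mir140-null replicate 2 it was 0.74 (adjusted p = 0.249), and without wild-type replicate 1 it was 0.40 (adjusted p = 0.193).

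Smurf1 (ENSMUSG00000038780, chr5:144876495-144965847, minus strand), which targets BMP-pathway SMADs and RhoA, was at 6.84, 15.6, 12.5 and 12.2 TPM in wild-type. In Mir140-null it was at 11.5, 12.2, 17.99 and 18.7 TPM. Null replicates 3 and 4 lay above every wild-type library, and null replicates 1 and 2 fell among them. The means were 11.8 ± 3.62 and 15.1 ± 3.78 TPM (SD, n = 4 each), with a log2 difference of 0.35, an SE of 0.26 and a 95% interval of -0.24 to 0.95 (limma, adjusted p = 0.371). With the library labelled Mir140-null replicate 2 left out, the difference was 0.44 (adjusted p = 0.353), without wild-type replicate 1 it was 0.14 (adjusted p = 0.690), and without null replicates 1 and 2 it was 0.65 (adjusted p = 0.232). Smurf1 was the only member on the study's list of predicted miR-140-5p targets, and no member was on either of its miR-140-3p lists. Those lists are predictions for human genes, matched here to the mouse members by symbol.

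Smurf2 (ENSMUSG00000018363, chr11:106820066-106920715, minus strand), which acts on SMADs and, through SMAD7, on TGF-beta receptors, was at 11.4, 16.8, 15.6 and 16.2 TPM in wild-type. In Mir140-null it was at 15.2, 16.2, 17.4 and 15.8 TPM. Apart from wild-type replicate 1, which was the lowest, the libraries of both genotypes lay close together. The means were 15.0 ± 2.49 and 16.2 ± 0.923 TPM (SD, n = 4 each), and the log2 difference was 0.11 with an SE of 0.14 and a 95% interval of -0.21 to 0.43 (limma, adjusted p = 0.602). It was 0.11 without the library labelled Mir140-null replicate 2 (adjusted p = 0.690), and it turned to -0.01 without wild-type replicate 1. Short microRNA genes annotated on the same strand within Smurf1 and at the start of Smurf2, Mir7039 and Gm27322, were listed at up to 13.4 and 20.6 TPM.

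Wwp1 (ENSMUSG00000041058, chr4:19608303-19708993, minus strand), the closest paralogue of Wwp2, was the least abundant member. Its wild-type levels were 3.60, 4.88, 4.26 and 4.81 TPM, and its null levels 3.03, 3.51, 4.63 and 4.96 TPM. The groups overlapped, with null replicates 1 and 2 the lowest and null replicate 4 the highest of all 8 libraries. The means were 4.39 ± 0.597 and 4.03 ± 0.916 TPM (SD, n = 4 each), and the log2 difference was -0.11 with an SE of 0.17 and a 95% interval of -0.50 to 0.28 (limma, adjusted p = 0.680). Leaving out the library labelled Mir140-null replicate 2, it was -0.06 (adjusted p = 0.855), without null replicate 1 it was -0.009, and without null replicates 1 and 2 it turned to 0.11.

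A ratio of 2 paralogues within a library does not depend on how libraries are scaled to each other. In all, 3 such ratios were compared, each for a pair of closest relatives, by a two-sided exact permutation test over the 70 ways to divide 8 libraries into groups of 4, for which 0.0286 is the smallest p possible, with adjustment over the 3. The ratio of Nedd4 to Nedd4l was 10.4, 3.47, 3.82 and 3.49 in wild-type and 2.28, 1.77, 2.33 and 1.91 in Mir140-null. Every null library lay below every wild-type one, and wild-type replicate 1 stood far above the rest. The mean log2 ratio was 2.23 ± 0.77 in wild-type and 1.04 ± 0.19 in Mir140-null (SD, n = 4 each), a difference of -1.19. The exact permutation test gave the smallest possible p of 0.0286, and 0.0857 after adjustment.

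Without wild-type replicate 1 the difference in the Nedd4 to Nedd4l ratio shrank to -0.80, with the null libraries still all lower (exact p = 0.0286, the smallest possible there too). Without the library labelled Mir140-null replicate 2 it was -1.11 (exact p = 0.0286), and without null replicates 1 and 2 it was -1.15 (exact p = 0.133). This shift joined a lower Nedd4 to a higher Nedd4l, neither of which passed the test across all genes alone.

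The ratio of Smurf1 to Smurf2 was 0.602, 0.924, 0.801 and 0.748 in wild-type and 0.755, 0.749, 1.03 and 1.18 in Mir140-null. Null replicates 3 and 4 were the highest and the others interleaved, with a difference in mean log2 ratio of 0.26 (exact permutation p = 0.229, adjusted 0.343). That difference was 0.15 without wild-type replicate 1, 0.14 without null replicate 4 and 0.54 without null replicates 1 and 2 (exact p = 0.0667, the smallest possible there). Wwp1 stood at 0.0102, 0.0106, 0.0128 and 0.0127 of Wwp2 in wild-type and 0.0116, 0.0100, 0.0118 and 0.0139 in Mir140-null. The groups overlapped fully, and the difference in mean log2 ratio was 0.03 (exact permutation p = 0.914, adjusted 0.914). With the library labelled Mir140-null replicate 2 left out, both ratios still overlapped between genotypes.

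**Figure D4:**
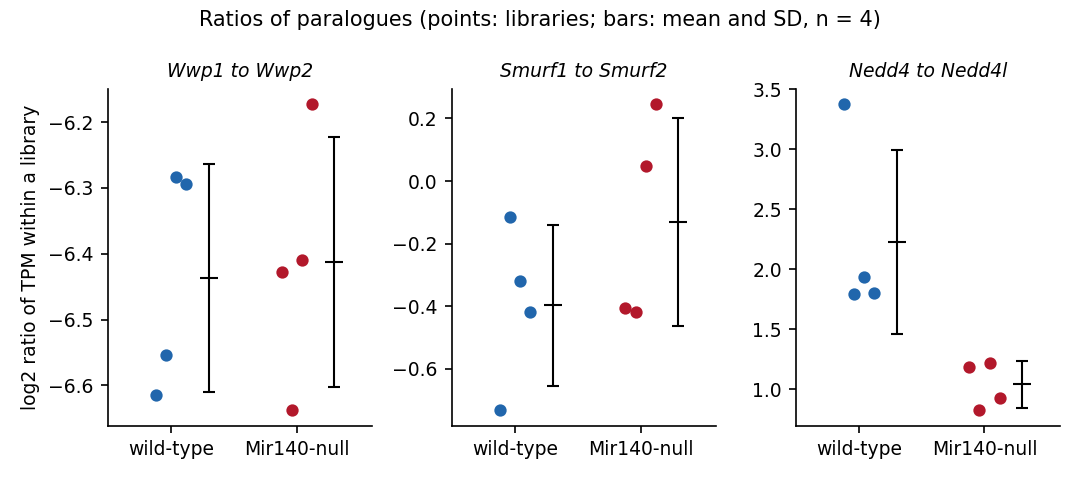
The log2 ratio of TPM within each library (vertical axes, a separate scale in each panel) for 3 pairs of paralogues, with wild-type in blue, Mir140-null in red and the mean and SD in black (n = 4). All 4 null libraries lie below all wild-type libraries for Nedd4 to Nedd4l, and the groups overlap in the other panels.

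The letters that pair with the seed of either miR-140-3p form were sought on the transcript strand in the longest annotated 3′UTR of each member (GENCODE M21, GRCm38). A 7m8 site pairs with bases 2 to 8, a 7a1 site pairs with bases 2 to 7 and is followed by an A, and an 8mer does both. The 7m8 site of miR-140-3p.1 is CCTGTGG and its 7a1 site is CTGTGGA. The 7m8 site of miR-140-3p.2 is CTGTGGT and its 7a1 site is TGTGGTA. Sites of the forms can overlap, since all but the last share the letters CTGTGG. Among 12988 tested genes with an annotated 3′UTR, 30.3% held some miR-140-3p.1 site and 24.9% some miR-140-3p.2 site, and an 8mer was held by 5.77% and 3.85%.

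No member held an 8mer, and Wwp1 and Smurf2 held no site at all in 3′UTRs of 3411 and 2599 bases. Wwp2, in 1609 bases, held a single 7a1 site for miR-140-3p.1, and Itch, in 2389 bases, a single 7m8 site for miR-140-3p.2. Nedd4 held a 7m8 site for each form in 2624 bases. Smurf1 held a pair of 7m8 sites for miR-140-3p.1 and a single 7m8 site for miR-140-3p.2 in 2862 bases. Nedd4l, with the longest 3′UTR of 4942 bases, held 3 7a1 sites for miR-140-3p.1. The median 3′UTR of the genes with one was 1159 bases, and those of the members lay between percentiles 62.0 and 95.6, so they offered more letters to match than most. The sites of the member called up, of the host gene, of the member that missed the threshold downwards and of Smurf1 are shown with 8 bases on each side and the site in capitals, with the position of its first base counted from 1 at the start of the 3′UTR.
Wwp2, position 1020, miR-140-3p.1: ttatttgaCTGTGGAagaagaca
Itch, position 695, miR-140-3p.2: tatcagcaCTGTGGTtccttcac
Nedd4, position 1455, miR-140-3p.1: ataagtagCCTGTGGgagctgta
Nedd4, position 19, miR-140-3p.2: aaaacaagCTGTGGTgtcttgta
Smurf1, position 2010, miR-140-3p.1: ctgcgtcgCCTGTGGgtcccctc
Smurf1, position 2536, miR-140-3p.1: tactgcagCCTGTGGgccacatg
Smurf1, position 277, miR-140-3p.2: tgggaaggCTGTGGTgtctccgc

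Members with sites thus were Itch, which rose in Mir140-null, Nedd4, whose null libraries were all lower, and Wwp2, Nedd4l and Smurf1, whose libraries overlapped. The libraries of Wwp1 and Smurf2, which held no site, overlapped as well. A match of letters is a description of the sequence and not a measured binding site.

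The remaining relatives with the same domains were barely present. Hecw1 stayed at or under 0.0404 TPM and was not tested. Hecw2 was at 0.908, 1.95, 2.92 and 1.66 TPM in wild-type libraries and 1.86, 2.93, 2.37 and 2.34 TPM in null ones, with overlapping groups (limma, adjusted p = 0.411).

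Adaptors and regulators of the family were described next, because most members are held closed or guided to substrates by other proteins. All 20 listed genes were tested, and 3 were called up and 1 down, a share of 20% beside 16.9% of all genes, with a median log2 difference of 0.06. Ndfip2, a membrane adaptor that opens Itch and Nedd4, rose from 16.8, 23.7, 22.8 and 23.5 TPM to 43.2, 38.2, 34.0 and 31.9 TPM (log2 difference 0.74, adjusted p = 0.0174). Its relative Ndfip1, at 60.5 to 83.9 TPM in wild-type libraries and 87.2 to 102.7 TPM in null ones, did not overlap either, with a log2 difference of 0.32 that missed the threshold (adjusted p = 0.116). Txnip, an arrestin-like protein that Itch ubiquitinates, did not overlap in the other direction, at 133.9 to 160.9 TPM in wild-type and 36.1 to 118.6 TPM in the null (log2 difference -1.05, adjusted p = 0.0543), and was called down with median-ratio scaling, which gave 2 up and 2 down for the list. Ndfip1 and Txnip are named after their values were seen.

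N4bp1, a Nedd4-binding protein that inhibits Itch, rose from 2.18, 2.62, 2.71 and 2.57 TPM to 4.82, 4.24, 4.05 and 4.07 TPM (log2 difference 0.59, adjusted p = 0.0173). Hivep3, which brings WWP1 to RUNX2 in osteoblasts, rose from 13.0, 28.4, 20.4 and 23.4 TPM to 32.2, 37.2, 33.1 and 45.8 TPM (log2 difference 0.81, adjusted p = 0.0470). N4bp3, a further Nedd4-binding protein, fell from 11.2, 10.5, 8.48 and 10.9 TPM to 5.61, 6.75, 7.56 and 6.39 TPM (log2 difference -0.57, adjusted p = 0.0285). In all 4 the genotypes did not overlap. Laptm4a, the most abundant of the list, at 212.8 to 241.4 TPM in wild-type libraries and 190.5 to 226.9 TPM in null ones, overlapped (adjusted p = 0.328). Leaving out the library labelled Mir140-null replicate 2, N4bp1 alone of the 20 was called, and without wild-type replicate 1 N4bp1 and Ndfip2. Without null replicates 1 and 2 limma called none, with 4 up and 2 down at an unadjusted p under 0.05. Over all genes 1007 up and 565 down of 16665 were called without wild-type replicate 1, and fewer without those null libraries, as given above.

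Of 30 described substrates and partners 24 were tested, and 4 were called up and 1 down, 20.8% beside 16.9% of all genes, with a median log2 difference of 0.20. Smad5 and Smad1, the BMP-pathway SMADs that Smurf1 binds, rose from 19.96 ± 3.30 to 35.4 ± 1.996 TPM and from 12.8 ± 2.41 to 19.8 ± 3.08 TPM (SD, n = 4 each; adjusted p = 0.00936 and 0.0449). Klf5, a described substrate of Wwp1, rose from 8.63 ± 0.907 to 15.4 ± 1.82 TPM (adjusted p = 0.0107), and Fgfr1, described as a substrate of Nedd4, from 253.8 ± 51.6 to 414.1 ± 46.6 TPM (adjusted p = 0.0235).

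Jun, an early response factor, a described substrate of Itch and the most abundant of the list, fell from 1595, 589.3, 837.9 and 839.3 TPM to 168.6, 347.9, 331.9 and 286.5 TPM (log2 difference -1.72, SE 0.33, adjusted p = 0.0158). Wild-type replicate 1 was the highest for Jun, and no library of one genotype reached the other. Sox9, the cartilage transcription factor whose product both drives Wwp2 and is a described partner of it, was at 129.2 to 175.2 TPM in wild-type libraries and 122.3 to 219.6 TPM in null ones (log2 difference 0.25, adjusted p = 0.389), and is named here for that role. Without the library labelled Mir140-null replicate 2, Jun, Klf5 and Smad5 were still called. Without null replicates 1 and 2 none of the 5 was, although Adamts5, an aggrecan-cleaving protease, then was. Both settings also called fewer of all genes, as given for the neighbours of Wwp2. The values of this list are mRNA levels, and the ligases act on proteins, so they do not measure ubiquitination.

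Of 17 HECT ligases outside the family that are described here, 1 was called up and 1 down, 11.8% beside 16.9% of all genes, with a median log2 difference of 0.05 that turned to -0.01 with median-ratio scaling. Ube3a, the ligase lost in Angelman syndrome, rose from 19.96 ± 2.18 to 35.3 ± 8.18 TPM (SD, n = 4 each, adjusted p = 0.0246), a call that median-ratio scaling ended. Herc6, an interferon-induced gene, fell from 2.80 ± 0.840 to 1.18 ± 0.406 TPM (SD, n = 4 each, adjusted p = 0.0401). Huwe1, the most abundant of the 17, at 132.8 to 256.1 TPM in wild-type libraries and 143.6 to 264.5 TPM in null ones, overlapped (adjusted p = 0.969). Limma called none of the 17 without the library labelled Mir140-null replicate 2, nor without wild-type replicate 1. In both cases 2 were up and 1 down at an unadjusted p under 0.05. Over all genes these settings called 755 up and 428 down of 16863, and 1007 up and 565 down of 16665.

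Of 8 E2 enzymes that load HECT ligases, 3 were called up and none down, 37.5% beside 16.9% of all genes called. Their median log2 difference was 0.39. At an unadjusted p under 0.05 the numbers were also 3 up and none down, without a share of all genes to set beside them. Ube2l3 rose from 11.0 ± 1.96 to 21.8 ± 5.95 TPM, Ube2d3, the most abundant, from 283.4 ± 17.7 to 427.4 ± 67.8 TPM and Ube2d2a from 31.1 ± 1.06 to 47.9 ± 7.22 TPM (SD, n = 4 each, adjusted p = 0.0231, 0.0208 and 0.0165). Ube2d2a alone was called without the library labelled Mir140-null replicate 2, without wild-type replicate 1, and without null replicates 1 and 2. These settings also called fewer of all genes, as given above. With median-ratio scaling Ube2d2a and Ube2l3 were called and Ube2d3 was not.

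**Figure D5:**
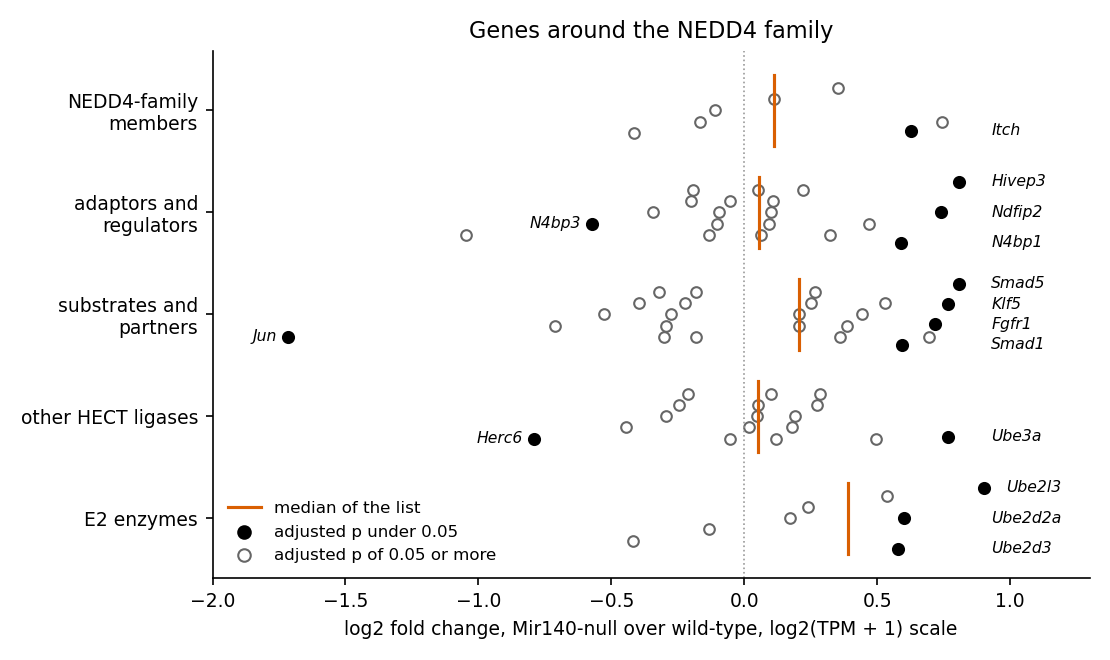
Each point is a tested gene, placed by its log2 fold change, Mir140-null over wild-type, on the log2(TPM + 1) scale (horizontal axis), in 5 lists (rows, with vertical spread only for legibility). Filled, named points had an adjusted p under 0.05, and orange bars mark list medians, from 0.05 for the other HECT ligases to 0.39 for the E2 enzymes, with 0.11 for the 7 members.

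Genes that moved like Wwp2 across the 8 libraries were sought among 9667 genes with a mean of at least 5 TPM, by the root mean square difference between log2(TPM + 1) profiles, each centred on its own mean. The 5 closest were Uck1 (0.0896), a uridine-cytidine kinase, Nr1d2 (0.0903), a clock repressor, Snx8 (0.0936), a sorting nexin, Pold4 (0.0956), a subunit of DNA polymerase delta, and Dym (0.0983), a Golgi protein whose loss causes a skeletal dysplasia. The median gene differed from Wwp2 by 0.390. The profile of Wwp2 itself spread by 0.216 around its mean, which is the distance that a gene with a flat profile would have. Among the members Nedd4 was the closest to Wwp2 at 0.212 and Nedd4l the farthest at 0.611, with Smurf2 at 0.231, Smurf1 at 0.376 and Itch at 0.509. Nedd4 and Smurf2 were thus about as far from Wwp2 as a flat profile, and the others farther. Wwp1, under 5 TPM, was not compared. These distances describe these 8 libraries only.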

How the data were processed

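Costal chondrocytes from 4 wild-type and 4 Mir140-null libraries were measured by stranded poly(A) RNA-seq. The deposited values are TPM per gene, which the authors made with Salmon against the mm10 mouse transcriptome after FastQC (0.11.7), and no counts were used here. TPM is relative within a library, so a change in abundant transcripts shifts all others, and depth cannot be recovered from it. The study's own model (RUVSeq with DESeq2) needs counts and could not be fitted.

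Each table held 52865 lines with 52325 identifiers. The 540 repeated lines carried the same values and were used once. No pair of libraries was identical. Those reaching 0.5 TPM in 4 or more of the 8 libraries (17177) were tested on log2(TPM + 1) with limma (3.58.1, R 4.3.3), genotype as the only term and a mean-variance trend, two-sided, with Benjamini-Hochberg adjustment over all of them. Genes were called at an adjusted p under 0.05, and the pipeline was tested on simulated data. A log2 difference with a pseudocount of 1 understates changes of low genes. Member ratios were compared by exact permutation in Python (3.11.15) with SciPy (1.17.1). Other scalings, filters, pseudocounts, covariates, weights and left-out libraries were tried as alternatives.

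The members and lists were chosen with earlier results of these data known. Named were all members, every called gene and the most abundant gene of each further list, called genes and nearest expressed genes around Wwp2, the 5 genes most like Wwp2, and Mir140. Nqo1, Nfat5, Ndfip1, Txnip, Sox9 and Adamts5 fall outside that rule. Gene positions, transcripts and 3′UTRs came from GENCODE M21 (GRCm38) and microRNA sequences from RefSeq (GRCm38.p6). Spart was matched under its older symbol Spg20. Predicted target lists of the study were used for membership only. A gene of the list of other HECT ligases is not reported here, and the counts of that list are without it.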

Additional observations from a re-analysis of the deposited data

Results flagged for a closer look

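Of 20 sets of 4 libraries examined for a library far from its group, that is each member and each ratio in each genotype, 1 stood out: the ratio of Nedd4 to Nedd4l in wild-type replicate 1, at 10.4 (10.36 to 4 digits) against 3.47 to 3.82 in the other wild-type libraries. Chance alone flags about 1 in 20 such sets, and these sets share libraries and genes, so they are not independent. The same library was the lowest of all 8 for Nedd4l, Smurf1 and Smurf2.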

How the results depend on the processing

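Over all genes 1797 were called up and 1100 down. Median-ratio scaling of the TPM turned the split from 62.0% up to 45.1% up (1248 up, 1521 down). Without a filter 977 and 539 were called, with a mean of at least 5 TPM 605 fell, with 1 factor of unwanted variation 2016 fell, and without Mir140-null replicates 1 and 2 the counts were 386 up and 234 down. Leaving out 1 library at a time gave 755 to 1551 up and 337 to 1251 down. Members called up numbered 0 in place of 1 with median-ratio scaling and without null replicates 1 and 2, and 0 to 1 with 1 library left out. Members called down numbered 1 in place of 0, Nedd4, with median-ratio scaling, quantile normalization and 1 factor. The factor was taken from the residuals after genotype, so it cannot move a difference and favours a lower p.

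The log2 difference kept its sign in all 18 alternatives for Wwp2, Itch, Nedd4, Nedd4l and Smurf1. Changes of filter, the replicate block and 1 factor cannot move a difference, so the sign was fixed in those. It turned for Wwp1 without null replicates 1 and 2 (0.112). It also turned for Smurf2 without wild-type replicate 1 (-0.007, in a range of -0.007 to 0.17 with 1 library left out), and the causes were not tested. For Itch, median-ratio scaling gave 0.56 (adjusted p = 0.0514).

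The Nedd4 to Nedd4l ratio ranged from -1.33 to -0.80 with 1 library left out, and missed 0.05 unadjusted as a difference of medians (-0.81, exact p = 0.0571) and without null replicates 1 and 2 (-1.15, exact p = 0.133, in a design too small to reach 0.05). The Smurf1 to Smurf2 ratio ranged from 0.138 to 0.543 over its alternatives. The Wwp1 to Wwp2 ratio ranged from -0.055 to 0.146 over its alternatives and turned negative without wild-type replicate 1 (-0.035), wild-type replicate 2 (-0.015) or null replicate 4 (-0.055).

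With the replicate number as a block, 671 genes were called up and 454 down, 0 members were called up (Itch, adjusted p = 0.0633), and the Nedd4 to Nedd4l difference of -1.185 had an exact p of 0.125, the smallest its sign-flip test allows. Libraries of the same number did not deviate together (correlations -0.0091 to 0.0688, none above 0.1, against -0.0845 to 0.0723 for other pairs), and 2 of 4 null libraries correlated best with their own number, so the numbers are not taken as pairs.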
